A study of Mus musculus with 9 samples.

Results

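The glutathione transferases, glutathione peroxidases and peroxiredoxins are the enzyme families that join glutathione to reactive compounds and that reduce hydrogen peroxide and lipid peroxides. Their genes were taken from the deposited expression table by symbol: names that begin with Gst and a class letter (a, k, m, o, p, t or z), with Gpx or with Prdx, each followed by a digit. This gave 36 of 23231 genes, made up of 22 transferase, 8 glutathione peroxidase and 6 peroxiredoxin genes, 2 of them pseudogenes (Gpx2-ps1 and Gstm2-ps1). Of these, 23 had a mean of at least 1 FPKM over all libraries and were tested. FPKM counts fragments per length of gene and per size of the library, so levels can be compared between genes.

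The data come from tibialis anterior muscle, a fast muscle of the lower leg, of C57BL/6 mice aged 6 months. Each muscle had been electroporated with an siRNA: construct 5 against Ubr4 (3 libraries), construct 7 against Ubr4 (3 libraries) or a non-targeting control siRNA (3 libraries). Ubr4 encodes a large ubiquitin ligase, and the study asked about its part in setting muscle fibre size. No label says whether libraries of a group came from separate mice, so p-values measure the spread between libraries, which may be technical. Both comparisons with the non-targeting siRNA use the same 3 control libraries.

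Glutathione transferases attach the tripeptide glutathione to electrophiles, which makes them soluble and easier to export. Most glutathione peroxidases use glutathione to reduce peroxides, and several carry selenocysteine in the active site. Peroxiredoxins reduce peroxide with a reactive cysteine, which thioredoxin then restores in most of them. Each has its own place in the cell: Prdx1 and Prdx2 mainly in the cytosol, Prdx3 in mitochondria, Prdx4 in the endoplasmic reticulum. In skeletal muscle these enzymes handle the peroxide that respiration and contraction produce.

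The targeted gene followed the labels. Ubr4 had 3.61, 3.80 and 2.73 FPKM with construct 5 and 2.25, 2.58 and 3.07 FPKM with construct 7, against 7.82, 10.3 and 9.09 FPKM with the non-targeting siRNA. The low FPKM values fall in steps worth 1 read each, which gave library depths of 29312121 to 45563539 reads. Libraries of a group correlated at 0.9848 to 0.993. The 10 skeletal muscle fibre markers, led by Acta1 and Ckm, summed to 63607 to 70236 FPKM with construct 5, 58899 to 71536 FPKM with construct 7 and 68217 to 73145 FPKM in controls, and 0 of 10 were called in any comparison. Below every control lay 3 of them with construct 5 (all genes 5.19%) and 3 with construct 7 (all genes 6.26%). In all 6 Ubr4 siRNA libraries 3 lay below every control (all genes 1.45%). Above every control lay 1 with construct 7 (all genes 10.5%). Markers of other cell types were read as well, and none of them was at 0 in all libraries. The 12 macrophage markers summed to 235 to 417 FPKM with construct 5, 111 to 187 FPKM with construct 7 and 141 to 206 FPKM in controls. The 8 fibroblast and matrix markers summed to 475 to 745 FPKM with construct 5, 304 to 324 FPKM with construct 7 and 381 to 443 FPKM in controls. Tendon markers (6 genes) gave up to 147 FPKM with construct 5, 35.2 to 77.4 FPKM with construct 7 and 45.1 to 66.0 FPKM in controls. Kera and Comp of this list were called higher with construct 5, as were 4.67% of all tested genes. The sums of the other lists overlapped between all groups: 88.9 to 116 FPKM over all libraries for 8 endothelial, 254 to 378 FPKM for 7 adipocyte, 179 to 419 FPKM for 8 erythroid and 0.540 to 42.2 FPKM for 7 neutrophil markers. The 42.2 FPKM belonged to construct 5 replicate 2 alone. The 6 satellite cell markers gave 31.2 to 53.1 FPKM with construct 5, 21.7 to 34.3 FPKM with construct 7 and 20.5 to 27.4 FPKM in controls. In bulk tissue fewer cells of a type and less RNA per cell cannot be told apart.

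**Figure D1:**
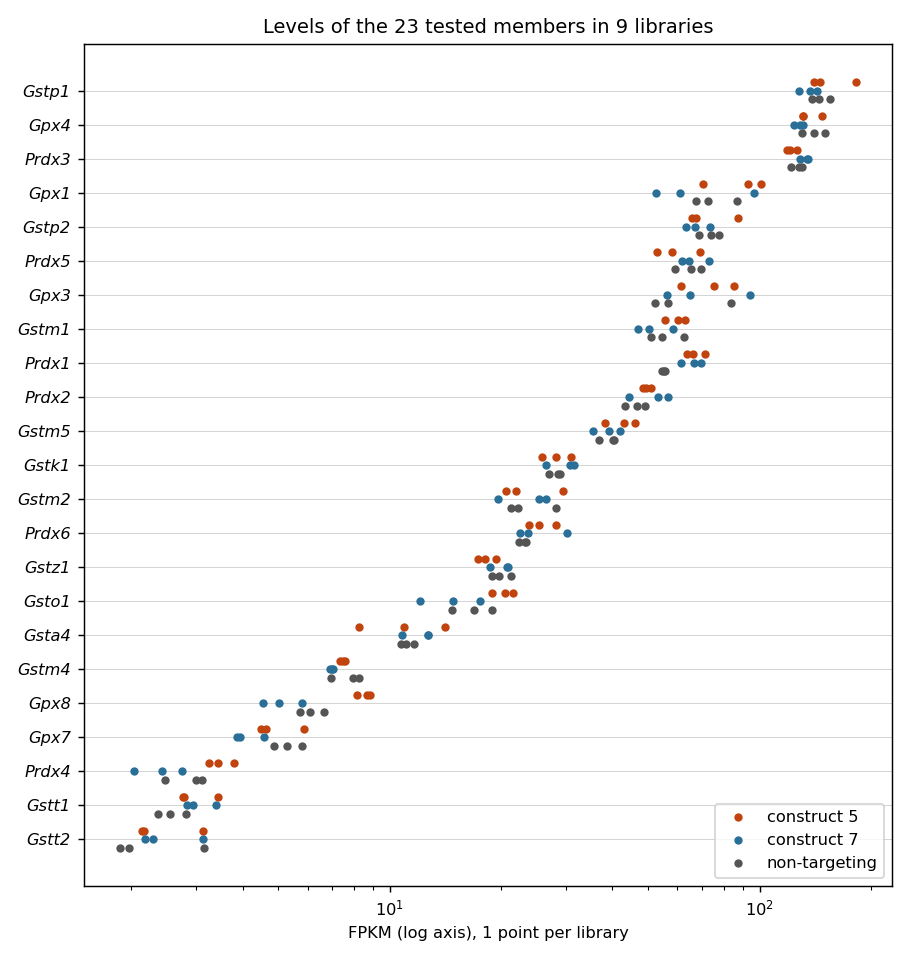
FPKM on a log axis of the 23 tested glutathione transferase, glutathione peroxidase and peroxiredoxin genes, 1 point per library, ordered by the control mean. Levels run from near 2 FPKM for Gstt2 to near 150 FPKM for Gstp1, and for most genes the points of the 3 groups lie among each other.

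Muscle expressed all 6 peroxiredoxins, 5 glutathione peroxidases and 12 transferases above the testing limit. The lowest of them in the controls, Gstt2, exceeded 26.1% of all tested genes, and the highest, Gstp1, exceeded 97.3%. In the controls the highest were Gstp1 (147 ± 7.94 FPKM), the pi class transferase, Gpx4 (140 ± 10.4), which reduces lipid hydroperoxides in membranes, and Prdx3 (127 ± 4.34; mean ± SD, n = 3 each). These ranked 290, 313 and 350 among the 10794 tested genes, and their control ranges overlapped from each gene to the next. A gap with no overlap of the control ranges then separated Prdx3 from Gpx1 (75.5 ± 10.2 FPKM), the cytosolic selenoenzyme. Gpx1, Gstp2, Prdx5, Gpx3, Gstm1 and Prdx1 followed between 75.5 and 55.0 FPKM, each overlapping the next in the controls. Gpx3 (64.1 ± 17.2 FPKM in controls) encodes the secreted glutathione peroxidase of blood plasma.

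Lower in the order, control means were 46.2 FPKM for Prdx2, 39.0 FPKM for Gstm5, 28.2 FPKM for Gstk1 and 23.9 FPKM for Gstm2. Prdx6, which unlike the other peroxiredoxins works with a single reactive cysteine, lay just below Gstm2. Gstz1, the maleylacetoacetate isomerase of tyrosine breakdown, had 20.0 FPKM, Gsto1 16.8 FPKM, Gsta4, which clears the lipid peroxidation product hydroxynonenal, 11.1 FPKM and Gstm4 7.72 FPKM. The least abundant tested members were the enzymes of the endoplasmic reticulum, Gpx8 (6.14 FPKM), Gpx7 (5.31 FPKM) and Prdx4 (2.86 FPKM), and the theta class transferases Gstt1 (2.58 FPKM) and Gstt2 (2.33 FPKM). All 36 genes together made up 0.188% to 0.239% of the FPKM total of a library. The pi class gave 47.9% to 55.1% of all transferase FPKM.

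The other 13 genes lay below the testing limit. Gstm7 missed it narrowly, with a mean of 0.9997 FPKM and a range of 0.802 to 1.10 FPKM, and the lowest gene inside it was Gstt2 with a mean of 2.4436 FPKM. Gstt3 ranged from 0.413 to 0.748 FPKM. Gsta2, Gsta3, Gstm2-ps1, Gstm3, Gstm6, Gsto2, Gstt4 and Gpx2-ps1 stayed at or below 0.510 FPKM in every library. Gpx2, the glutathione peroxidase of the gut lining, and Gpx6 were listed at 0 in all 9 libraries. With 3 reads taken as the limit for a count of 0, the limit on a transcript of 1 kilobase is 0.066 to 0.102 FPKM in these libraries (counting error only).

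Gsta1, an alpha class transferase, was the untested gene with the widest spread. It had 1.26, 0.735 and 0.241 FPKM with construct 5 and 0, 0.272 and 0.121 FPKM with construct 7, against 0.250, 0.0324 and 0.0336 FPKM in controls. With the annotated gene length these values correspond to 40, 32 and 7 reads with construct 5, to 0, 10 and 5 reads with construct 7 and to 7, 1 and 1 reads in controls. Construct 5 replicates 1 and 2 stood above every other library (95% exact Poisson intervals 28.6 to 54.5 and 21.9 to 45.2 reads), while replicate 3 lay within the control range. Of all 50-base words in Gsta1 transcripts, 90.5% also occur in transcripts of other genes, most of them in Gm3776, so the reads could not be assigned to Gsta1 with certainty.

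The first comparison set construct 5 against the non-targeting siRNA. A single member of the 3 families, Gpx8, was called higher and 0 were called lower by limma at a Benjamini-Hochberg adjusted p under 0.05. Prdx1, Prdx4 and Prdx6 also lay above every control library without passing. The glutathione transferases, including the abundant Gstp1 and the mu class, gave 0 calls. The call rate of the members, 1 of 23 (4.35%), lay near the 5.27% of all 10794 tested genes called in this comparison (4.67% higher and 0.602% lower). At an unadjusted p under 0.05 there were 2 members, Gpx8 and Prdx1 (8.7%), beside 31.9% of all tested genes.

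Gpx8 (ENSMUSG00000021760) encodes a membrane-anchored glutathione peroxidase of the endoplasmic reticulum that takes part in the disposal of peroxide made during oxidative protein folding. It had 8.15, 8.84 and 8.68 FPKM with construct 5, 4.54, 5.79 and 5.03 FPKM with construct 7 and 5.71, 6.09 and 6.63 FPKM with the non-targeting siRNA. All 3 construct 5 libraries lay above all other libraries, while construct 7 and the controls overlapped in 1 library. The difference between construct 5 and controls was 0.42 on the log2(FPKM + 1) scale (SE 0.088, limma adjusted p = 0.0435, higher in 3 of 3 libraries). This call was close to the threshold. It was lost with median-ratio scaling (0.29, adjusted p = 0.113), with quantile normalization (0.28, adjusted p = 0.122) and when low genes were kept in the test (adjusted p = 0.0862). It was also lost without any 1 of the 3 controls (adjusted p 0.128, 0.101 and 0.0941 without replicates 1, 2 and 3), without construct 5 replicate 1 (0.138), 2 (0.0833) or 3 (0.0542), and without construct 7 replicate 3 (0.0697).

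Prdx1 (ENSMUSG00000028691), an abundant cytosolic peroxiredoxin, had 71.4, 66.2 and 63.7 FPKM with construct 5 and 66.7, 61.3 and 69.5 FPKM with construct 7, against 55.2, 54.5 and 55.5 FPKM with the non-targeting siRNA. Each of the 6 Ubr4 siRNA libraries was above each of the 3 controls, and the controls lay close together. The difference was 0.28 with construct 5 (SE 0.072, limma adjusted p = 0.0553) and 0.25 with construct 7 (SE 0.072, limma adjusted p = 0.334), so neither passed. For the mean of both constructs it was 0.27 (SE 0.062, limma adjusted p = 0.102). In that comparison 0 of 23 members were called, beside 0.00926% of all genes, which was 1 gene, lower. Prdx1 was the 1 member at an unadjusted p under 0.05, beside 19.1% of all genes. Without construct 7 replicate 2 the construct 5 difference passed (adjusted p = 0.0493), and with median-ratio scaling it was 0.13 (adjusted p = 0.261). Separation of all 6 libraries from the controls held for Prdx1 under median-ratio scaling too. Of all tested genes 8.04% lay above every control in all 6 libraries as deposited, and 4.05% with median-ratio scaling. As deposited 0 members lay below every control in all 6, beside 1.45% of all genes.

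The promoter sequences of Prdx1 and Gpx8 are shown because these genes stood furthest above the controls with construct 5. Each runs from 250 bases before to 50 bases after the start of the gene in RefSeq (GRCm38.p6), not in the mm9 build of the deposited table. They were searched on both strands for TGACNNNGC, the core of the antioxidant response element to which the factor Nrf2 binds. A match is a match of letters and no evidence of binding. Capitals mark it in the Prdx1 sequence, where it lies on the reverse strand and begins 133 bases before the start (chr4:116685349-116685648, plus strand, 60.7% G and C). No match is in these letters for Gpx8 (chr13:113046339-113046638, minus strand, 45.3% G and C).
Prdx1: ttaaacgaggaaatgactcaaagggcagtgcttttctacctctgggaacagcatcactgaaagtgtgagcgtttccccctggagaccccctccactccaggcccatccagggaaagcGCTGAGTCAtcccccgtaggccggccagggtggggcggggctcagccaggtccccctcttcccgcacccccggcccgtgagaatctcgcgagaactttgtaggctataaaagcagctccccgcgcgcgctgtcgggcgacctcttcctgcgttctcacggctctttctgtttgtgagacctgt
Gpx8: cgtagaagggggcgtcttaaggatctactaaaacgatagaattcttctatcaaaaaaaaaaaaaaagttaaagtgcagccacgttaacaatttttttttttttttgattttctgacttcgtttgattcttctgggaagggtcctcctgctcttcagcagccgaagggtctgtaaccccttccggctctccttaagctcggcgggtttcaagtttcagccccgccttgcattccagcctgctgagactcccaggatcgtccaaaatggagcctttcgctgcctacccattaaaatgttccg

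The table of promoters held 31 of the 36 genes, with 42 promoters in all, and 20 of the 23 tested ones. The motif was in 4 of the 42, those of Gsta3, Gstm5, Prdx1 and 1 of the Gstm7 promoters, against 12.4% of all 32851 promoters of the same length. Among the tested genes Gstm5 was the other with the motif. It had 46.1, 38.1 and 43.0 FPKM with construct 5 and 41.9, 39.1 and 35.5 FPKM with construct 7, against 36.7, 40.3 and 40.1 FPKM in controls, and its groups overlapped.

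**Figure D2:**
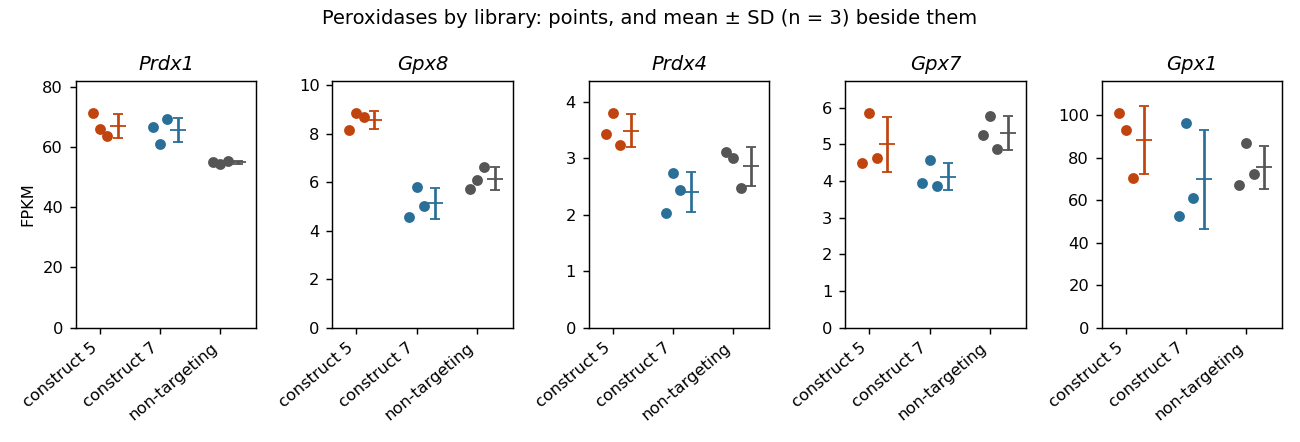
FPKM of Prdx1, Gpx8, Prdx4, Gpx7 and Gpx1 on axes that start at 0, with 1 point per library and the mean ± SD (n = 3) beside the points. Prdx1 is above the controls with both constructs, Gpx8 and Prdx4 are highest with construct 5, Gpx7 is lowest with construct 7, and Gpx1 varies widely within each group.

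Prdx4, the peroxiredoxin of the endoplasmic reticulum, had 3.43, 3.80 and 3.24 FPKM with construct 5 and 2.03, 2.74 and 2.43 FPKM with construct 7, against 3.11, 3.00 and 2.47 FPKM in controls. The construct 5 libraries were the highest of the 9, and the other groups overlapped. The difference from controls was 0.22 with construct 5 (SE 0.101, limma adjusted p = 0.166), and 0.11 with median-ratio scaling or 0.05 with quantile normalization. Prdx4 reads were fewest in construct 7 replicate 1, at 136 (exact Poisson 95% limits of 114 and 161). Prdx6 had 23.8, 28.2 and 25.4 FPKM with construct 5 and 22.5, 23.6 and 30.2 FPKM with construct 7, against 23.4, 23.2 and 22.4 FPKM in controls. Its construct 5 values exceeded the controls by a small margin, and 4 of the 23 tested members (17.4%) thus lay above every control with construct 5. The share of all tested genes that did so was larger, 33.0%. With median-ratio scaling the members above every control were Gpx8 and Prdx1 alone (all genes 14.4%), and Gpx4, Gstz1 and Prdx3 lay below every control (all genes 15.6%), whereas as deposited 0 members lay below (all genes 5.19%).

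As a set the 23 members moved little with construct 5. Their median log2 difference was 0.08, beside 0.13 for all tested genes, and 8 of 23 exceeded the median of all genes. Differences above 0 were seen in 15 of 23 members (65.2%), beside 76.7% of all genes. Differences ran from -0.12 for Gstz1 to 0.42 for Gpx8. With median-ratio scaling, which takes the median of all genes to 0.01, the median of the members was -0.05, and 8 of 23 were above 0. Of the calls over all genes 504 were higher and 65 lower as deposited, and 14 of 78 were higher with that scaling. Among the transferases Gsto1, which reduces dehydroascorbate and mixed disulfides, had 21.5, 20.5 and 18.9 FPKM with construct 5 and 12.1, 14.8 and 17.6 FPKM with construct 7, against 16.9, 18.9 and 14.7 FPKM in controls. Gstp1 had 182, 146 and 140 FPKM with construct 5, against 139, 145 and 155 FPKM in controls, with only replicate 1 outside the control range. The sum over all 22 transferases was 450 ± 37.2 FPKM with construct 5, 410 ± 16.7 FPKM with construct 7 and 430 ± 21.0 FPKM in controls (SD, n = 3).

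The second comparison set construct 7 against the non-targeting siRNA, and here 0 of the 23 members were called by limma, with 3 at an unadjusted p under 0.05 (Prdx1, Gpx7 and Gpx8, 13.0%, beside 9.47% of all genes). Of all tested genes 0.0556% were called, all of them lower. Gpx7, another peroxidase of the endoplasmic reticulum, had 3.94, 4.56 and 3.87 FPKM with construct 7 and 4.50, 5.85 and 4.64 FPKM with construct 5, against 5.26, 5.78 and 4.87 FPKM in controls. Its construct 7 libraries lay below every control, and construct 5 overlapped both. The difference was -0.30 (SE 0.102, limma adjusted p = 0.398). The difference for Gpx8 was -0.23 (SE 0.088, limma adjusted p = 0.453). Gstt1 had 2.94, 2.83 and 3.39 FPKM with construct 7, against 2.37, 2.55 and 2.81 FPKM in controls, so it and Prdx1 were the 2 members (8.7%) above every control, beside 10.5% of all genes. Gpx7 was the 1 member below every control (4.35%), beside 6.26% of all genes. With median-ratio scaling Prdx1 alone lay above every control (all genes 8.27%), and 5 members lay below, Gpx4, Gpx7, Gpx8, Gstm4 and Gstp1 (all genes 8.35%). The median of the members was -0.0037 on the log2 scale, beside 0.02 for all genes, and 11 of 23 lay above 0 (47.8%), beside 57.0% of all genes. For the mean of both constructs Gpx7 differed by -0.19 (SE 0.088, limma adjusted p = 0.282) and Gstt1 by 0.17 (SE 0.080, limma adjusted p = 0.294). The Gstt1 value was 0.10 with median-ratio scaling and 0.07 with quantile normalization. In that comparison 14 of 23 members lay above 0 (60.9%), beside 72.0% of all genes, but 7 with median-ratio scaling and 8 with quantile normalization.

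Some abundant members hardly varied. Prdx3 had the narrowest spread of the tested members, with 119, 126 and 121 FPKM with construct 5 and 134, 129 and 135 FPKM with construct 7, against 130, 122 and 128 FPKM in controls, the highest library being 1.13 times the lowest. Gpx4 had 148, 131 and 131 FPKM with construct 5 and 124, 131 and 129 FPKM with construct 7, against 130, 150 and 140 FPKM in controls, and all groups overlapped. With median-ratio scaling Gpx4 was below every control in all 6 Ubr4 siRNA libraries, as were 3.97% of all genes. The spread was widest for Gpx8 (1.95 times), Gpx1 (1.93) and Prdx4 (1.88). Gpx1 had 101, 93.1 and 70.4 FPKM with construct 5 and 52.4, 96.5 and 60.8 FPKM with construct 7, against 67.2, 86.9 and 72.4 FPKM in controls. Its groups overlapped throughout, with construct 7 replicate 2 far above the others of that group. The macrophage markers summed to 187 FPKM in that library, against 111 and 132 FPKM in the others of construct 7, and erythroid markers to 321 FPKM, against 364 and 302 FPKM. Their part in the Gpx1 level was not tested.

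For the remaining members the libraries of both constructs and of the controls lay among each other in most cases. Levels over all 9 libraries were 63.4 to 87.2 FPKM for Gstp2, 46.9 to 62.7 for Gstm1, 19.6 to 29.5 for Gstm2, 6.88 to 8.28 for Gstm4, 25.8 to 31.5 for Gstk1, 8.24 to 14.1 for Gsta4, 17.3 to 21.3 for Gstz1, 1.87 to 3.14 for Gstt2, 52.1 to 94.3 for Gpx3, 43.2 to 56.5 for Prdx2 and 52.7 to 72.9 for Prdx5. The ratio of Gstp2 to Gstp1 FPKM stayed between 0.450 and 0.513. These neighbouring genes are near copies. Of the 50-base words of Gstp2 transcripts, 49.1% occur in those of Gstp1 and 54.3% in those of any other gene. Of the words of Gstp1, 33.7% occur in those of Gstp2, so how reads were divided between Gstp1 and Gstp2 is uncertain. The same holds for Gpx4 (34.7%, shared with Gpx4-ps2) and Gstm1 (18.9%), while Prdx1 shared 8.3%, Gpx1, Gpx3, Gpx7, Gpx8, Prdx3, Prdx4 and Prdx5 shared 0.0%. Exons of Gstm5, Gstz1, Prdx2 and Prdx5 overlap a gene on the opposite strand in the annotation, and the strand of the libraries is not given in the sources used here.

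**Figure D3:**
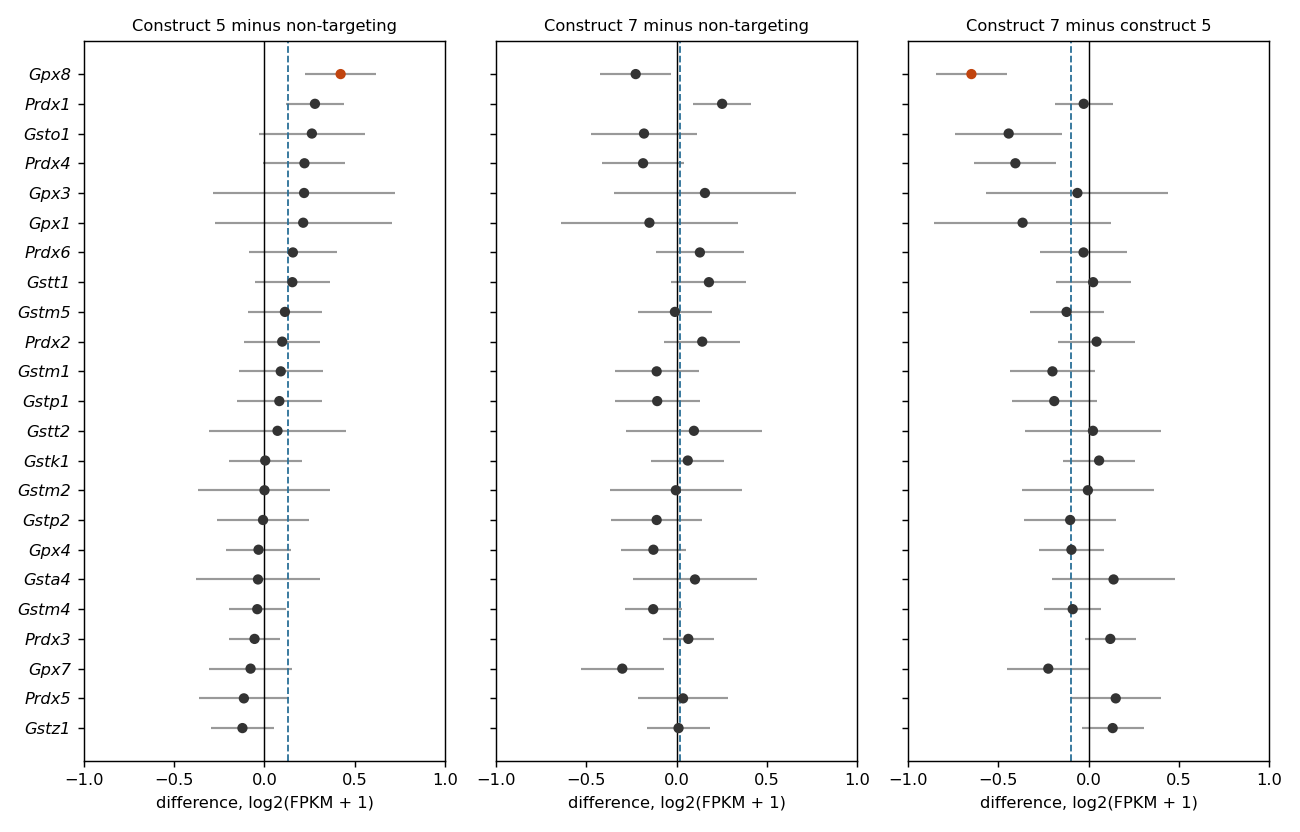
Difference of each of the 23 tested genes on the log2(FPKM + 1) scale with its 95% confidence interval from limma, for construct 5 minus non-targeting, construct 7 minus non-targeting and construct 7 minus construct 5. The dashed line is the median of all 10794 tested genes and the red points, Gpx8 in the first and last panels, have an adjusted p under 0.05.

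The third comparison set the constructs against each other. Gpx8 was lower with construct 7 than with construct 5 by limma (-0.65, SE 0.088, adjusted p = 0.0195), with all 3 construct 7 libraries below all 3 of construct 5. It was the 1 member called of 23 (4.35%), against 1.22% of all tested genes (1.07% lower and 0.148% higher). At an unadjusted p under 0.05 there were 3 members (13.0%), beside 23.1% of all genes. The call was kept with median-ratio scaling (-0.54, adjusted p = 0.0434) and quantile normalization (-0.53, adjusted p = 0.0332). It was lost when low genes were kept in the test (adjusted p = 0.0554), when the 6 libraries of these groups were fitted alone (0.0581), and without construct 5 replicate 1 (0.0569) or 2 (0.0535) or construct 7 replicate 1 (0.0775) or 3 (0.089). Prdx4 (-0.41, SE 0.101, limma adjusted p = 0.0729) and Gsto1 (-0.44, SE 0.131, limma adjusted p = 0.107) were also lower in all 3 construct 7 libraries and did not pass. Without construct 7 replicate 2 Prdx4 passed (adjusted p = 0.0487), and with quantile normalization its difference was -0.26 (adjusted p = 0.228). With Gstm4, 4 members (17.4%) lay below construct 5 in every construct 7 library, beside 22.4% of all genes. Prdx3 lay above in every library (4.35% of members, all genes 3.02%). With median-ratio scaling 3 members lay below, Gpx8, Gsto1 and Prdx4 (all genes 9.98%), and 2 above, Gstz1 and Prdx3 (all genes 11.5%). Differences above 0 were seen in 8 of 23 members as deposited (34.8%), beside 24.5% of all genes, but in 15 with median-ratio scaling and 13 with quantile normalization. The Prdx1 levels of the constructs overlapped.

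The group means of Gpx8 were highest with construct 5 and lowest with construct 7. Mean sums of the fibroblast and matrix, macrophage, tendon, adipocyte and neutrophil markers had the same order. Those of the endothelial, erythroid, satellite cell and muscle fibre markers did not. Like Gpx8, 4.47% of all tested genes lay above the control mean in every construct 5 library and below it in every construct 7 library. The order of Gpx7 was another, with 5.00 ± 0.744 FPKM with construct 5, 4.12 ± 0.378 FPKM with construct 7 and 5.31 ± 0.455 FPKM in controls (SD, n = 3), and of these peroxidases of the endoplasmic reticulum only Gpx8 was called in any comparison. Gpx8, Gpx7 and Prdx4 summed, with Gpx8 the largest share, had 16.1, 18.5 and 16.6 FPKM with construct 5 and 10.5, 13.1 and 11.3 FPKM with construct 7. The control mean was 14.3 ± 0.49 FPKM (SD, n = 3), and as deposited the 3 groups did not overlap. As deposited, 33.0% of all tested genes lay above every control with construct 5 and 6.26% below with construct 7. Median-ratio scaling divides construct 5 by 1.111, 1.072 and 1.019 and controls by 0.9532 to 0.9762, which narrows their gap. With it only Gpx8 of these genes lay above every control with construct 5. In the sum, construct 5 and the controls then overlapped. Construct 5 replicate 1 (16.1 FPKM, divided by 1.111) fell below control replicate 2 (14.9 FPKM, divided by 0.9589). The construct 7 libraries stayed the lowest. The fibroblast and matrix markers had the same order of groups, with 475, 745 and 491 FPKM with construct 5 and 304, 324 and 322 FPKM with construct 7, against 400.0, 443 and 381 FPKM in controls. Of these 8 markers Col1a2 was called higher with construct 5 by limma, and Col1a1, Col1a2 and Col3a1 were called lower with construct 7 than with construct 5. Of all tested genes 4.67% were called higher with construct 5 and 1.07% lower between constructs. The macrophage markers summed to 329, 417 and 235 FPKM with construct 5 and 111, 187 and 132 FPKM with construct 7, against 154, 206 and 141 FPKM in controls, and 2 of 12 (Lgals3 and Lyz2) were called higher with construct 5. The part of these cells in the levels of Gpx8 and Prdx4 was not tested.

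The genes that supply and restore these enzymes were read from lists of their pathways, and the calls were made with construct 5, with 0 for construct 7. Over all tested genes 4.67% were called higher and 0.602% lower with construct 5. Among 15 tested genes of glutathione synthesis and recycling, 1 was called higher and 0 lower with construct 5. This was glutathione reductase (Gsr), which regenerates glutathione, with 9.10 ± 1.52 FPKM with construct 5, 7.90 ± 0.522 FPKM with construct 7 and 5.51 ± 0.119 FPKM in controls (SD, n = 3). Its log2 difference was 0.62 with construct 5 (SE 0.101, limma adjusted p = 0.0406) and 0.45 with construct 7 (SE 0.101, limma adjusted p = 0.278). It lay above every control with both, as did 8.04% of all tested genes. The median of the list was 0.06 with construct 5 and 0.00 with construct 7, beside 0.13 and 0.02 for all tested genes. With median-ratio scaling it was -0.04 with construct 5. The Gsr call was kept with that scaling. It was lost with quantile normalization, with low genes kept in the test, without any 1 of the controls, without construct 5 replicate 1 and without construct 7 replicate 3.

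In the thioredoxin system, which restores most peroxiredoxins, 2 of 14 genes were called higher and 1 lower with construct 5, beside 4.67% and 0.602% of all tested genes. Sulfiredoxin (Srxn1), which repairs overoxidised peroxiredoxins, had 19.2 ± 1.83 FPKM with construct 5, 12.7 ± 2.42 FPKM with construct 7 and 12.1 ± 1.97 FPKM in controls. Thioredoxin (Txn1) had 52.2 ± 8.54 FPKM with construct 5, 41.8 ± 6.46 FPKM with construct 7 and 34.4 ± 2.78 FPKM in controls. The methionine sulfoxide reductase Msrb3 fell to 26.5 ± 2.34 FPKM with construct 5, against 38.0 ± 3.97 FPKM in controls. Srxn1 differed from controls by 0.63 (limma adjusted p = 0.0493), Msrb3 by -0.50 (0.0498) and Txn1 by 0.58, with an adjusted p just under the threshold. Of the 14, 0 were called with median-ratio scaling, quantile normalization, other pseudocounts, a limit of 5 FPKM or low genes kept in the test, or without any 1 of the controls, construct 5 replicate 1 or 2, or construct 7 replicate 3.

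Superoxide dismutases and catalase, which make and remove peroxide, gave 0 calls among 5 genes. Catalase (Cat) had 49.6 ± 7.57 FPKM with construct 5, 48.4 ± 8.84 FPKM with construct 7 and 32.8 ± 1.91 FPKM in controls, above every control with both constructs (log2 differences 0.57 and 0.53, limma adjusted p = 0.0524 and 0.311). Of all tested genes 8.04% lay above every control with both. Cat was called higher with construct 5 when the libraries of the contrast were fitted alone and without construct 7 replicate 1. Sod1 had 0.17 with construct 5 (adjusted p = 0.199). Of 21 tested genes of the Nrf2 pathway, which controls many antioxidant enzymes, 6 were called higher and 0 lower with construct 5, beside 4.67% and 0.602% of all tested genes. The factor itself, Nfe2l2, had 11.4 ± 0.236 FPKM with construct 5, 9.88 ± 0.264 FPKM with construct 7 and 7.92 ± 0.619 FPKM in controls (log2 difference 0.48 with construct 5, limma adjusted p = 0.0344, and 0.29 with construct 7, adjusted p = 0.278). The others were Nqo1 (log2 difference 1.13, limma adjusted p = 0.0344), Cbr3 (0.68, 0.0406) and Aldh3a1 (2.28, 0.0406), followed by Cbr1 and Srxn1. This list shares genes with those of glutathione synthesis and of the thioredoxin system, where the Srxn1 call was counted as well. Between constructs Nqo1 (-1.03, limma adjusted p = 0.0305) and Cbr3 (-0.61, 0.0488) were called lower with construct 7, the only calls of the 7 lists in that comparison. Of all tested genes 1.07% were called lower there. The Cbr3 call was lost with other pseudocounts, either rescaling, a limit of 5 FPKM (where it was not tested) and without control replicate 2 or 3. Both were lost with low genes kept in the test, with the libraries of the contrast alone, and without control replicate 1, construct 5 replicate 1 or 2, or construct 7 replicate 1 or 3. Aldh3a1 had 5.84 ± 1.12 FPKM with construct 5 and 8.38 ± 6.81 FPKM with construct 7, against 0.436 ± 0.404 FPKM in controls. The median of this list was 0.48 with construct 5 and 0.10 with construct 7, beside 0.13 and 0.02 for all tested genes. With median-ratio scaling it was 0.34 with construct 5, beside 0.01 for all tested genes. The count was 1 (Nqo1) with median-ratio scaling and with quantile normalization, 3 with a limit of 5 FPKM and 0 with low genes kept in the test. It was 0 without any 1 of the controls or without construct 5 replicate 1 or 2, and 1 (Aldh3a1) without construct 7 replicate 3. It was 5 with other pseudocounts and 6 with the libraries of the contrast alone. Without construct 5 replicate 3 or construct 7 replicate 1 it was 8, and without construct 7 replicate 2 it was 7.

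The remaining lists gave 1 call, with construct 5, where 4.67% of all tested genes were called higher. Among 12 tested genes of selenoprotein synthesis, on which the selenocysteine-containing glutathione peroxidases depend, Trnau1ap, a protein that binds the selenocysteine tRNA, was called higher with construct 5 (0.34, limma adjusted p = 0.0409), a call lost with either rescaling, with low genes kept in the test, with a limit of 5 FPKM (where the gene was not tested), with the libraries of the contrast alone, without any 1 of the controls, without construct 5 replicate 1 or 2 and without construct 7 replicate 3. The list's median was 0.02 with each construct, beside 0.13 for all tested genes with construct 5 and 0.02 with construct 7. Of 5 tested membrane-bound transferase and leukotriene genes 0 were called, with a median of 0.24 with construct 5 and -0.04 with construct 7. With median-ratio scaling the median with construct 5 was 0.11. Their smallest p-values with construct 5 were those of Ptges2 (-0.22, limma adjusted p = 0.221) and Alox5ap (0.39, 0.231). Sources of peroxide and superoxide gave 0 calls among 6 genes with a median of 0.40 with construct 5. Among them Cyba had a difference of 0.65 (limma adjusted p = 0.0806). With construct 7, 0 genes of these 7 lists were called by limma, and Aldh3a1 had the smallest adjusted p of those named, at 0.12. Without construct 7 replicate 3 Aldh3a1 was called higher with construct 7.

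**Figure D4:**
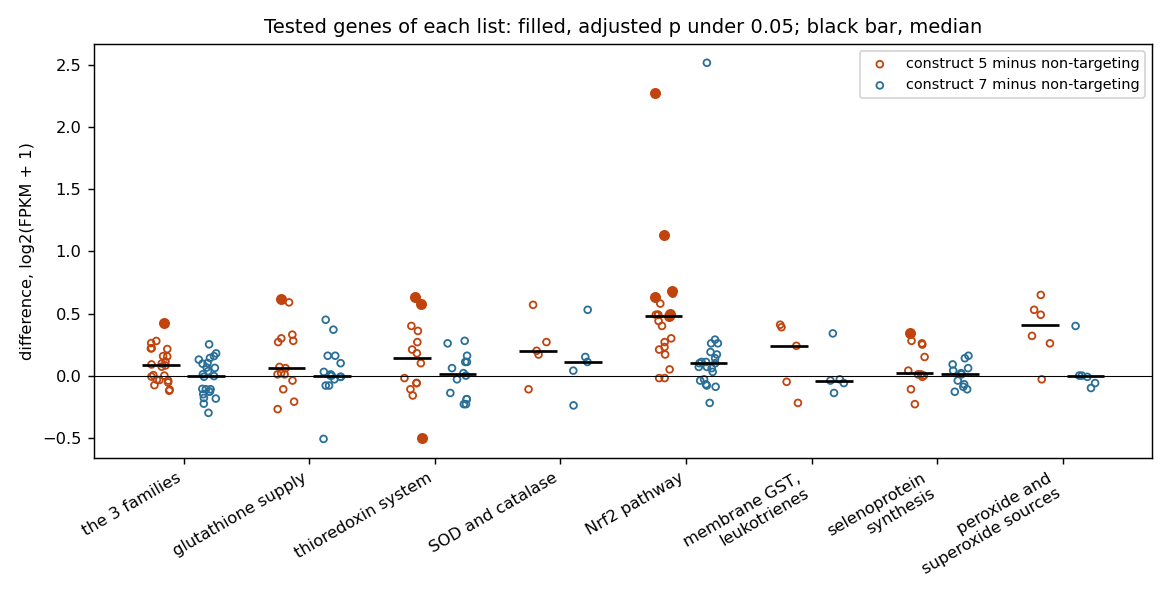
Differences from the controls on the log2(FPKM + 1) scale for the tested genes of the 3 enzyme families and of 7 related lists, with construct 5 in red and construct 7 in blue. Filled points have an adjusted p under 0.05 and black bars are medians, of which the Nrf2 list with construct 5 is the highest at 0.48 and the 3 families lie at 0.08 and near 0. The median of all tested genes was 0.13 with construct 5 and 0.02 with construct 7.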

How the data were processed

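The authors deposited FPKM values for 23231 genes in 9 libraries. The submitters' processing notes name BWA, STAR and HTSeq and the genome build mm9. Versions, roles, annotation and strand are not given in the sources used here. Promoter sequences are from RefSeq (GRCm38.p6).

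Genes with a mean of at least 1 FPKM (10794) entered 1 limma model (version 3.58.1, R 4.3.3, eBayes with trend) of log2(FPKM + 1) on the 3 groups, with 4 contrasts, Benjamini-Hochberg adjustment over all tested genes and calls at 0.05. The scale understates differences of low genes. The procedure was tested on simulated data with independent noise for each gene. No shift of whole libraries was simulated, so that test cannot speak to the choice of scaling. Depth came from the steps of low values with GENCODE M21 gene lengths: 72.8% of 51798 values under 50 reads were whole within 0.1 reads. Intervals cover counting error only. Shared words of 50 bases were counted in GENCODE M21 transcripts.

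Replicate numbers are shared by the groups, but 2 of 9 same-numbered pairs had deviations correlated over 0.1, so they were not taken to pair libraries. Each choice was varied singly: the pseudocount (0.1, 0.5), the filter (none, or 5 FPKM), the scaling (median-ratio, quantile), the libraries fitted (those of the contrast, or all but 1) and a replicate block. Members with the 3 smallest p-values in each contrast and called members were given full statistics, and of other lists called genes or the smallest p-values were named. Members and lists were chosen with earlier results of these data known. Figures used Python 3.11.15 and matplotlib 3.10.9. The value of 1 gene of these lists is not reported here.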

Additional observations from a re-analysis of the deposited data

Results flagged for a closer look

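For 3 members every library of one construct lay above the control mean and every library of the other below it. Against the controls only Gpx8 with construct 5 was called among them, so opposite effects were not shown. Gpx8 differed by -0.65 (construct 7 minus construct 5, log2 scale, limma adjusted p = 0.0195), and Prdx4 by -0.41 (limma adjusted p = 0.0729). Prdx3 differed by 0.12 (limma adjusted p = 0.277), being higher with construct 7. This pattern was present in 548 of 10794 tested genes (5.08%), of which 482 were higher with construct 5 and lower with construct 7.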

How the results depend on the processing

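The direction of every member with full statistics was kept under all alternatives run. Gpx8 was called in 6 of 17 alternatives with construct 5 (adjusted p 0.0389 to 0.138) and in 11 of 17 between constructs (0.01 to 0.089), and Prdx1 in 1 of 17 with construct 5 (0.0493 to 0.261). Members called with construct 5 were 1 as reported and 0 with no filter, median-ratio scaling, quantile normalization or the replicate block, and 0 to 2 when a library was left out. Between constructs they were 0 with no filter and with the libraries of the contrast alone, and 0 to 2 when a library was left out. The median log2 difference of the members became -0.0549 with median-ratio scaling and -0.0148 with quantile normalization for construct 5, -0.0514 and -0.0219 for the mean of both constructs, and 0.0564 and 0.0289 between constructs. Leaving out a library gave medians of 0.05 to 0.12 for construct 5, -0.05 to 0.00 for construct 7, 0.00 to 0.04 for the mean and -0.10 to -0.04 between constructs.

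Genes called with construct 5 numbered 569 (504 higher), against 316 with a pseudocount of 0.1, 5 with no filter, 204 with a filter at 5 FPKM, 78 (14 higher) with median-ratio scaling, 82 (13 higher) with quantile normalization, 11 with the replicate block, 246 with the libraries of the contrast alone and 1 to 581 when a library was left out. With construct 7 there were 6, against 0 with no filter, 2 with the libraries of the contrast alone and 0 to 5 when a library was left out. For the mean of both constructs there was 1, against 0 with no filter, 2 with a filter at 5 FPKM, 4 with the replicate block and 0 to 7 when a library was left out. Between constructs there were 132 (16 higher), against 10 with no filter, 48 with a filter at 5 FPKM, 79 (38 higher) with median-ratio scaling, 60 (30 higher) with quantile normalization, 217 with the replicate block, 23 with the libraries of the contrast alone and 3 to 387 when a library was left out. The log2 difference of Ubr4 stayed at -1.20 with construct 5 and -1.47 with construct 7 with no filter, where neither passed (adjusted p = 0.0523 and 0.0976), and when a library was left out it ran from -1.29 to -1.09 and from -1.56 to -1.38. It then passed in 6 of 9 cases with each construct, with adjusted p up to 0.0956 (without control replicates 2 and 3 and construct 5 replicate 1 for construct 5) and 0.0877 (without control replicates 2 and 3 and construct 7 replicate 2 for construct 7). The cause of these shifts was not tested.

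Correlations of same-numbered pairs ran from -0.364 to 0.313, and 0 of 9 libraries correlated best with their own number in both other groups. The replicate block ended the Gpx8 call with construct 5 (adjusted p = 0.0519) and kept that between constructs (0.015). With construct 5 it ended the Gsr, thioredoxin system and Trnau1ap calls and left 1 of the Nrf2 pathway list (Aldh3a1), which was also called with construct 7.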
